A study of Arabidopsis thaliana with 35 samples.

Results

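Dissected hypocotyls harvested after 24 h at 28 °C were compared with hypocotyls harvested after 3 h at 28 °C. The comparison rests on the 6 arrays whose titles name hypocotyl, 28 °C and 24 h (3 arrays) or 3 h (3 arrays), out of 35 in the series. It addresses what differs between an early and a late harvest within warmed hypocotyls.

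All plants were seedlings of RRS-7, a natural accession of Arabidopsis thaliana. They spent 5 days at 20 °C with 16 h light and 8 h darkness under white LEDs (120 µmol/m2/s). On day 5, at ZT 7 (7 h after lights on), plates went to 28 °C or stayed at 20 °C. The 3 h group was taken at ZT 10 of day 5 and the 24 h group at ZT 7 of day 6. Time at 28 °C, age and time of day therefore changed together and cannot be told apart within the 28 °C arrays. Hypocotyls left at 20 °C and taken at the same harvests (3 arrays each) show what age and time of day gave without warming. Cotyledons at 28 °C from the same harvests (3 arrays each) were used to see where the hypocotyl differed. The labels call the replicates biological and pooled from several harvest sessions, so each array averages many seedlings.

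The hypocotyl is the embryonic stem of the seedling, and its elongation is a well-known response of Arabidopsis to mild warmth. The circadian clock sets the daily rise and fall of many transcripts, and its members include evening-phased genes such as GI. Starch is made in the light and broken down at night, and anthocyanins, the red flavonoid pigments, are made by a short chain of dedicated enzymes.

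Values are log2 RMA expression values, in which a difference of 1 is a 2-fold change. Values of the table reached 14.3, and over the hypocotyl arrays the median probe set lay at 5.89 and the 10th percentile at 3.34. Replicates at 28 °C correlated at r = 0.995 to 0.996 across all probe sets. On the second principal component of the 12 hypocotyl arrays (14.6% of the variance), the 28 °C arrays of 24 h lay at 2.27 to 16.3 and those of 3 h at −13.2 to −7.10. Replicate 2 of 24 h lay farthest out, at 16.3. The 20 °C harvests overlapped on that component (24 h at −3.93 to 1.39, 3 h at −0.01 to 4.58). On the first component (34.7%), the 28 °C arrays lay at 12.1 to 14.4 at 24 h and at 8.14 to 9.27 at 3 h. The 20 °C arrays lay there at −8.73 to −4.50 and at −17.8 to −12.8. The root hair expansin genes EXPA7 and EXPA18 stood at 4.22 to 5.41 on the hypocotyl arrays against 7.67 to 9.25 on root arrays. PYK10, a β-glucosidase abundant in roots, was however high in the hypocotyl (12.4 to 12.9) as in root (13.2 to 13.7). The Rubisco activase gene RCA, a mark of green tissue, was high in hypocotyl (13.2 to 13.5) and cotyledon (13.6 to 13.8), and the stem cell gene CLV3 was at 3.84 or below in hypocotyl. None of these 5 genes passed the test between 24 h and 3 h at 28 °C (log2 changes −0.23 to 0.07). In a dissected organ, fewer cells of a type and less RNA per cell cannot be told apart.

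Of 13356 genes tested with limma, 394 (2.95%) differed between 24 h and 3 h at 28 °C at an adjusted p under 0.05. Of these, 210 (1.57%) were higher at 24 h and 184 (1.38%) were lower. With every array centred on its median, the split turned to 146 higher and 211 lower, or 40.9% higher in place of 53.3%. Most changes were small. The median size among the 394 genes was 0.465 log2, from 0.258 to 3.26, and 7 genes rose (0.0524%) and 11 fell (0.0824%) by at least 2-fold. The 3 arrays of 24 h all lay above the 3 of 3 h in 1139 genes (8.53%) and below them in 1321 (9.89%), and 381 of the 394 genes called were among these. The count was 163 without replicate 1 of 3 h and 187 without replicate 2 of 24 h, and the other arrays left 270 to 392. With the 6 arrays fitted alone it was 228, and 31 of the 72 named genes called at 28 °C lost their call. Genes with a symbol were called more often than the rest: they were 75 of the 394 (19%) and 1557 of all 13356 (11.7%). Of these 1557 genes 42 rose and 33 fell. The gene lists below hold genes with a symbol, so the shares of all genes given beside them are a low yardstick.

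DFR (AT5G42800, chromosome 5) rose more than any other gene with a symbol. It encodes dihydroflavonol 4-reductase, the enzyme that commits flavonoid intermediates to anthocyanin. Its log2 values were 6.53, 6.73 and 6.16 on the 3 h arrays and 8.17, 8.23 and 7.47 on the 24 h arrays at 28 °C. The groups did not overlap, and DFR rose 2.80-fold (1.48 ± 0.20, standard error of the fit, 3 arrays a group, limma adjusted p = 1.56e-05). This error and those below use the spread within all 12 groups of the 35 arrays, not that of the compared arrays alone. At 20 °C the values were 7.83, 7.81 and 7.69 at 3 h and 7.68, 7.52 and 7.99 at 24 h. The 20 °C groups overlapped, and the warm 3 h arrays were below all others of the hypocotyl. The time change at 28 °C exceeded that at 20 °C by 1.53 ± 0.29 (limma adjusted p = 0.0102).

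UF3GT (AT5G54060), a glycosyltransferase that decorates anthocyanins, followed with 6.29, 6.75 and 6.35 at 3 h and 7.24, 7.13 and 7.29 at 24 h of 28 °C. It rose by 0.76 ± 0.19 (limma adjusted p = 0.0178). Its call ended without replicate 1 or 3 of either harvest, and without replicate 1 of 3 h the change was 0.67 (adjusted p = 0.127). UGT78D2 (AT5G17050), the flavonoid 3-O-glucosyltransferase, was at 7.29, 7.96 and 7.74 at 3 h and at 7.96, 8.21 and 8.18 at 24 h. It rose by 0.45 ± 0.12 (adjusted p = 0.0366). Without replicate 1 of 3 h, the lowest array, its change was 0.27 (adjusted p = 0.358), and the call also ended without replicate 3 of 3 h and without replicate 2 or 3 of 24 h. Of the 6 measured flavonoid genes with a symbol, 3 rose and 0 fell, against 1.57% of all genes that rose. The list median was 0.49 at 28 °C and −0.04 at 20 °C, where none of the 6 passed, beside −0.02 and 0.01 for all genes. The other members, UGT78D1 (0.52), CHIL (0.41) and UGT78D3 (−0.06), did not pass. Among the 6, the difference between the temperatures passed for DFR alone. In the cotyledon at 28 °C, 5 of the 6 rose (median 0.83), against 11.1% of all genes (median −0.03).

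Genes of starch metabolism went both ways. APL3 (AT4G39210) and APL4 (AT2G21590) encode large subunits of ADP-glucose pyrophosphorylase, the committing enzyme of starch synthesis. APL3 was at 5.45, 5.74 and 5.91 at 3 h and at 6.21, 6.38 and 5.99 at 24 h, and rose by 0.50 ± 0.12 (limma adjusted p = 0.0161). APL4 was at 4.67, 5.33 and 5.27 at 3 h and at 5.60, 5.88 and 5.60 at 24 h, and rose by 0.61 ± 0.16 (adjusted p = 0.0287). All 24 h arrays lay above all 3 h arrays for both genes, by narrow margins. At 20 °C both were lower at 24 h by estimate (−0.15 for APL3 and −0.26 for APL4), and neither difference between the temperatures passed (adjusted p = 0.0712 and 0.0651). The branching enzyme gene SBE2.2 rose by 0.37 ± 0.09 (adjusted p = 0.0168). PWD, the phosphoglucan, water dikinase that opens starch granules to breakdown, fell from 9.09, 9.06 and 8.98 to 8.66, 8.68 and 8.73 (−0.35 ± 0.07, adjusted p = 0.00273). PWD also fell at 20 °C (−0.44 ± 0.07), and the difference was 0.09 ± 0.10. With the 6 arrays of 28 °C fitted alone, none of these 4 genes passed (adjusted p = 0.0715 for PWD, and 0.108 with the replicate block added). Of 5 measured starch genes 3 rose and 1 fell, against 1.57% and 1.38% of all genes, and DPE1 changed by −0.24 without passing. The calls of APL3 and APL4 ended without replicate 1 of 3 h (0.37 and 0.40) and without replicate 2 of 24 h (0.40 and 0.51), and that of APL3 also without replicate 1 of 24 h (0.49). That of SBE2.2 ended without replicate 1 (0.34) or 2 (0.36) of 24 h and without replicate 3 of 3 h (0.32).

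**Figure D1:**
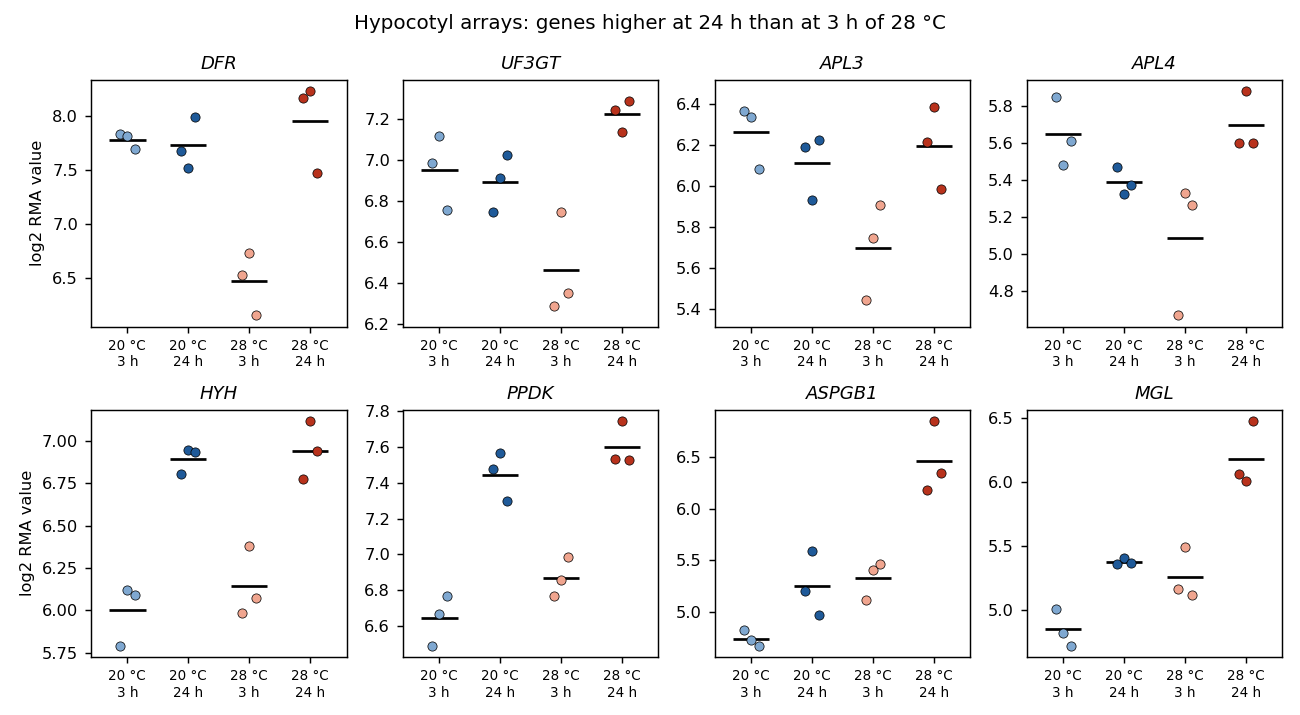
Log2 RMA values of 8 genes that rose between 3 h and 24 h at 28 °C, on each of the 12 hypocotyl arrays (points) with the group mean (bar); each panel has its own vertical scale. DFR, UF3GT, APL3 and APL4 have their lowest mean at 3 h of 28 °C, HYH and PPDK are higher at 24 h at both temperatures, and ASPGB1 and MGL are highest at 24 h of 28 °C.

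The asparaginase gene ASPGB1 and the methionine gamma-lyase gene MGL were the next largest rises with a symbol. ASPGB1 (AT3G16150), whose product releases ammonium from asparagine, was at 5.11, 5.40 and 5.47 at 3 h and at 6.18, 6.85 and 6.35 at 24 h. It rose 2.19-fold (1.13 ± 0.16, limma adjusted p = 3.09e-05), with a change of 0.51 at 20 °C that did not pass (adjusted p = 0.101). Its difference between the temperatures did not pass. MGL (AT1G64660) was at 5.17, 5.49 and 5.12 at 3 h and at 6.06, 6.00 and 6.47 at 24 h (0.92 ± 0.13, adjusted p = 2.45e-05). It also rose at 20 °C, by 0.53 ± 0.13 (adjusted p = 0.0214), and the difference of 0.40 ± 0.18 did not pass. In both genes the 24 h arrays of 28 °C were the 3 highest of the 12 hypocotyl arrays. PPDK (AT4G15530), pyruvate, orthophosphate dikinase, rose by 0.73 ± 0.11 at 28 °C and by 0.80 ± 0.11 at 20 °C. HYH (AT3G17609), the close homologue of the light-signalling transcription factor HY5, rose by 0.80 ± 0.12 and 0.90 ± 0.12. GR1 (glutathione reductase) rose by 0.50 ± 0.09 and 0.46 ± 0.09. The changes of these 3 genes differed between the temperatures by −0.10 to 0.05, with a standard error of 0.13 to 0.17. The β-glucosidase gene BGLU47 rose by 0.87 ± 0.16 (adjusted p = 0.00157) and the transcription factor gene BZIP34 by 0.53 ± 0.09 (adjusted p = 0.000456). Neither passed at 20 °C, and neither difference between the temperatures passed. BGLU47 was at 6.36, 6.77 and 6.87 at 3 h of 28 °C and at 7.68, 7.78 and 7.15 at 24 h, against 7.29 to 7.69 on the 20 °C arrays.

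ATMPK13 (AT1G07880), a mitogen-activated protein kinase gene, was at 4.78, 4.79 and 4.69 at 3 h and at 5.43, 5.69 and 5.14 at 24 h of 28 °C. At 20 °C it was at 4.76, 5.12 and 4.78 and at 4.75, 4.71 and 4.64. The groups did not overlap at 28 °C, where it rose by 0.67 ± 0.12, while the change at 20 °C was −0.19 ± 0.12 (difference 0.86 ± 0.17, limma adjusted p = 0.0104). BCAT4, which starts the methionine branch of glucosinolate synthesis, differed in the same way (0.35 ± 0.09 at 28 °C, −0.31 ± 0.09 at 20 °C, adjusted p of the difference 0.0104). The call of BCAT4 at 28 °C ended without replicate 1 or 3 of 3 h and without replicate 1 or 2 of 24 h (0.30 to 0.37). TAAC, a thylakoid ATP/ADP carrier gene, changed by 0.41 ± 0.08 and −0.16 ± 0.08 (adjusted p of the difference 0.0111). Without replicate 1 of either 3 h group its difference was 0.54 and did not pass.

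The largest fall was that of COR27 (AT5G42900, chromosome 5), a small cold- and clock-regulated gene. Its values at 28 °C were 6.21, 5.91 and 5.92 at 3 h and 3.80, 4.06 and 3.75 at 24 h. At 20 °C they were 7.66, 7.59 and 7.44 and then 4.36, 4.81 and 4.57. The groups were far apart at either temperature, and both harvests were lower at 28 °C. COR27 fell by 2.14 ± 0.11 at 28 °C (4.40-fold, limma adjusted p = 1.49e-14) and by 2.98 ± 0.11 at 20 °C, a difference of 0.85 ± 0.16 (adjusted p = 0.0104). The 24 h values at 28 °C lie near the 10th percentile of probe sets (3.34), where array values have little room to fall. Cotyledon arrays of 24 h at 28 °C read lower still (3.14 to 3.38), and whether a floor limited the hypocotyl fall was not tested.

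GI (AT1G22770), GIGANTEA, an evening-phased clock protein that promotes flowering in long days, changed in opposite directions. At 28 °C it was at 8.43, 8.11 and 8.29 at 3 h and at 7.92, 7.90 and 7.81 at 24 h. At 20 °C it was at 7.99, 8.03 and 8.04 at 3 h and at 8.29, 8.34 and 8.34 at 24 h. It fell by 0.40 ± 0.07 at 28 °C (limma adjusted p = 0.000507) and rose by 0.30 ± 0.07 at 20 °C (adjusted p = 0.0128), with no overlap in either pair of groups. The difference of −0.70 ± 0.10 passed (adjusted p = 0.00021), also with each array left out. With the 6 arrays of 28 °C fitted alone, the fall itself did not pass (adjusted p = 0.0782). XERICO, a RING-H2 gene that raises abscisic acid levels, fell by 0.50 ± 0.08 at 28 °C (8.59, 8.42 and 8.49 to 8.12, 8.02 and 7.86). It changed by −0.15 ± 0.08 at 20 °C, and its difference between the temperatures did not pass. GI and COR27 were the only measured members of the clock list with a symbol, and both fell, against 1.38% of all genes. COR27 is counted again among the cold genes. The other clock-linked genes MYBC1, FIO1, TIC, XCT and LIP1 did not pass (−0.24 to 0.13).

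Cold-regulated genes formed the next group of falls. COR47 (AT1G20440), a dehydrin, was at 10.02, 9.63 and 9.92 at 3 h and at 9.25, 9.22 and 9.41 at 24 h of 28 °C. It fell by 0.56 ± 0.10 (limma adjusted p = 0.000942), and its change at 20 °C was −0.19 ± 0.10. The difference of COR47 between the temperatures did not pass. COR15B (AT2G42530) and COR15A (AT2G42540), which encode chloroplast proteins that protect membranes in the cold, are neighbours on chromosome 2 and close in sequence, so their probe sets may share signal. COR15B was at 6.00, 6.49 and 5.31 at 3 h and at 5.29, 5.15 and 5.28 at 24 h, and changed by −0.69 ± 0.19 (adjusted p = 0.0355). Replicate 3 of 3 h lay only just above the 24 h arrays, and without replicate 2 of 3 h the change was −0.42 (adjusted p = 0.266). The call also ended without replicate 1 of 3 h and without any array of 24 h (−0.72 to −0.65). COR15A changed by −0.48 ± 0.14 (adjusted p = 0.0478), and its call ended without any of the 6 arrays (−0.56 to −0.42). At 20 °C COR15B and COR15A fell by 1.19 ± 0.19 and 0.65 ± 0.14, and their differences to 28 °C did not pass. The dehydrin gene LTI30 was at 8.02, 7.25 and 7.71 at 3 h and at 6.83, 6.84 and 7.27 at 24 h, overlapping groups, and its change of −0.68 ± 0.27 did not pass (adjusted p = 0.198). Of 16 measured cold and dehydration genes, COR27 included, 4 fell and 0 rose, against 1.38% and 1.57% of all genes. The list median was −0.25 at 28 °C and 0.18 at 20 °C. LEA18 (−0.55), the osmotin OSM34 (−0.50) and the zinc finger gene STZ (−0.29) did not pass at 28 °C.

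**Figure D2:**
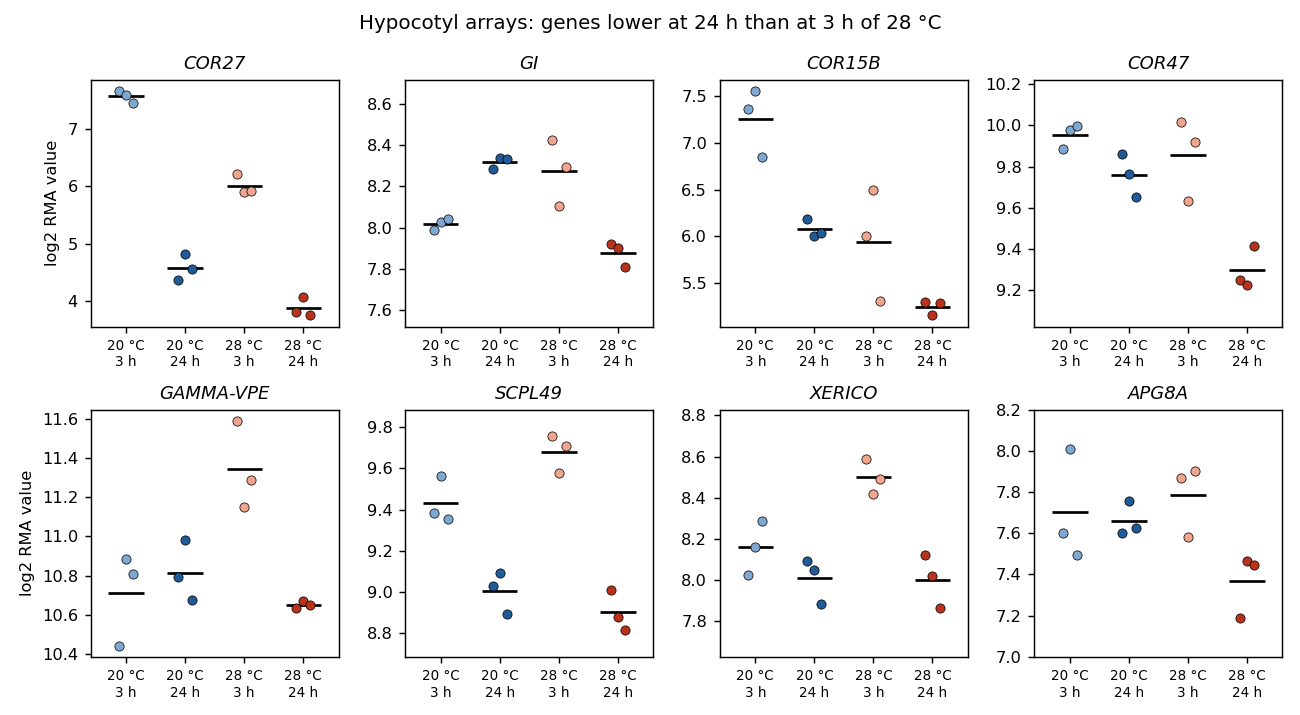
Log2 RMA values of 8 genes that fell between 3 h and 24 h at 28 °C, on each of the 12 hypocotyl arrays (points) with the group mean (bar); each panel has its own vertical scale. COR27, SCPL49 and COR15B are lower at 24 h at both temperatures, GI falls at 28 °C and rises at 20 °C, and GAMMA-VPE and XERICO are highest at 3 h of 28 °C.

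The protease genes GAMMA-VPE and SCPL49 fell, in every setting tried. GAMMA-VPE (AT4G32940), a vacuolar processing protease, was at 11.59, 11.15 and 11.29 at 3 h and at 10.63, 10.67 and 10.65 at 24 h. The 3 h arrays of 28 °C were the highest of the hypocotyl, the 24 h arrays lay within the range of 20 °C (10.44 to 10.98), and the fall was 0.69 ± 0.11 (limma adjusted p = 0.000124). The change at 20 °C was 0.10 ± 0.11 and the difference −0.79 ± 0.15 (adjusted p = 0.0104). That difference no longer passed without replicate 1 of either 3 h group or replicate 2 of 20 °C at 24 h (−0.71 to −0.66, adjusted p = 0.0522 to 0.0556). SCPL49, a serine carboxypeptidase-like gene, was at 9.76, 9.58 and 9.71 at 3 h and at 9.01, 8.88 and 8.81 at 24 h (−0.78 ± 0.08, adjusted p = 1.80e-07). It also fell at 20 °C, by 0.43 ± 0.08, and the difference did not pass (adjusted p = 0.146). Of 29 serine carboxypeptidase-like genes 3 fell and 0 rose, against 1.38% and 1.57% of all genes, with a median of −0.08. The other 2 were scpl31 (−0.54 ± 0.12) and scpl35 (−0.46 ± 0.13). The call of scpl31 rested on replicate 1 of 3 h (4.63 against 3.99 and 4.22), without which it was −0.37 (adjusted p = 0.15), and that of scpl35 ended without any of the 6 arrays (−0.52 to −0.37). Of 10 autophagy genes of the ATG8 family and its conjugation, APG8A (ATG8a, −0.42 ± 0.11) and ATG8H (−0.48 ± 0.13) fell and 0 rose, against 1.38% and 1.57% of all genes, with a median of −0.15. Both lost their calls without replicate 1 or 3 of 3 h or replicate 1 of 24 h (−0.46 to −0.33), ATG8H also without replicate 2 of 24 h (−0.52). None of the 10 passed at 20 °C, and neither did any of their differences between the temperatures.

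THIC, CCL and SUFE2 fell at both temperatures. THIC, an enzyme of thiamine synthesis, was at 10.89, 10.71 and 10.78 at 3 h and at 10.12, 10.17 and 9.82 at 24 h. It fell by 0.76 ± 0.09 at 28 °C and by 0.66 ± 0.09 at 20 °C. CCL fell by 0.91 ± 0.14 and 0.79 ± 0.14, and SUFE2, which serves iron-sulphur cluster assembly, by 0.75 ± 0.18 and 1.12 ± 0.18. SUFE2 lost its call at 28 °C without replicate 3 of 3 h (−0.57, adjusted p = 0.127) and without replicate 1 or 3 of 24 h (−0.71). The differences of these 3 genes ran from −0.12 to 0.37 and did not pass. PDC2 (pyruvate decarboxylase, −0.56 ± 0.10) and MAP1C (methionine aminopeptidase, −0.55 ± 0.11) fell at 28 °C and did not pass at 20 °C (−0.24 and −0.21). Their differences between the temperatures did not pass.

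Among genes known here by a locus code alone, AT4G19430 rose most of all genes tested. It was at 4.14, 4.67 and 4.12 at 3 h and at 7.23, 8.22 and 7.25 at 24 h of 28 °C. It rose 9.56-fold (3.26 ± 0.27, limma adjusted p = 8.04e-10), against 1.33 ± 0.27 at 20 °C, and the difference of 1.93 ± 0.38 passed (adjusted p = 0.0112). Replicate 2 of 24 h was its highest array at either temperature (8.22 and 5.94). Without that 28 °C array the difference was 1.60 (adjusted p = 0.0628), and it also missed the threshold without replicate 1 of either 3 h group (1.84 and 1.90). AT1G70270 rose by 1.33 ± 0.17 and by 0.32 ± 0.17 at 20 °C (adjusted p of the difference 0.0365). The difference of AT1G70270 did not pass in 8 of the 12 fits with an array left out, with 0.77 without replicate 2 of 28 °C at 24 h. AT5G15950, AT1G65490 and AT2G41250 rose by 1.02 to 1.15 at 28 °C. At 20 °C each rose by a similar amount, the largest rise being 1.21. The 5 that fell most, AT1G07050, AT4G33980, AT4G16146, AT5G62360 and AT4G32340, fell by 1.38 to 1.74 at 28 °C, with changes of −2.36 to −1.14 at 20 °C. None of these last 8 had a difference between the temperatures that passed.

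Families linked to growth and to heat gave few calls, to be read against the 1.57% of all genes that rose and the 1.38% that fell. These families hold only measured genes with a symbol, which 1557 of the 13356 genes have. Of those 1557 genes 42 rose and 33 fell, a higher share than among all genes. Members known by a locus code alone were not counted. Of 18 expansin genes, which loosen cell walls, EXPB3 rose (0.48 ± 0.14, limma adjusted p = 0.0495) and 0 fell, with a median of 0.00. Without replicate 1 of 3 h EXPB3 changed by 0.37 (adjusted p = 0.296), and its call also ended without replicate 2 of 3 h and without any array of 24 h (0.46 to 0.51). EXPA8 was at 9.54, 9.53 and 9.58 at 3 h and at 9.75, 9.61 and 9.53 at 24 h of 28 °C (0.08 ± 0.12), against 8.17 to 8.92 on the 20 °C arrays. It stood higher at 28 °C than at 20 °C on every hypocotyl array at both harvests. Of 10 xyloglucan endotransglucosylase genes XTH32 rose (0.29 ± 0.08, adjusted p = 0.0464) and lost its call without any of the 6 arrays (0.25 to 0.31). Of 20 auxin genes HAT2, an auxin-inducible homeobox gene, rose (0.34 ± 0.09, adjusted p = 0.0404), and IAA29 changed by 0.03. The call of HAT2 ended without replicate 1 or 3 of 3 h and without replicate 1 or 2 of 24 h (0.30 to 0.34).

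Of 21 chaperone and co-chaperone genes 0 rose and 1 fell, against 1.57% and 1.38% of all genes, with a median of −0.04. The member that fell was Fes1B, a homologue of a nucleotide exchange factor of Hsp70, which went from 8.52, 8.33 and 8.14 to 7.66, 7.74 and 7.63 (−0.65 ± 0.10) and also fell at 20 °C (−0.46 ± 0.10). Hop3, a co-chaperone of Hsp70 and Hsp90, was at 6.38, 6.81 and 6.53 at 3 h and at 6.42, 6.88 and 6.32 at 24 h (−0.03 ± 0.15). The groups overlapped, and all 6 arrays were above the 20 °C arrays (4.39 to 5.13). Of 22 nuclear photosynthesis genes 0 passed in either direction, against 2.95% of all genes. Of 69 plastid-encoded genes psbE, a subunit of cytochrome b559, rose (0.42 ± 0.12, limma adjusted p = 0.0404), against 1.57% of all genes. The list median was 0.14 at 28 °C and −0.10 at 20 °C. The call of psbE ended without any of the 6 arrays but replicate 3 of 24 h (0.33 to 0.46). Of all 62 lists and families, markers included, 29 had no gene that passed at 28 °C.

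**Figure D3:**
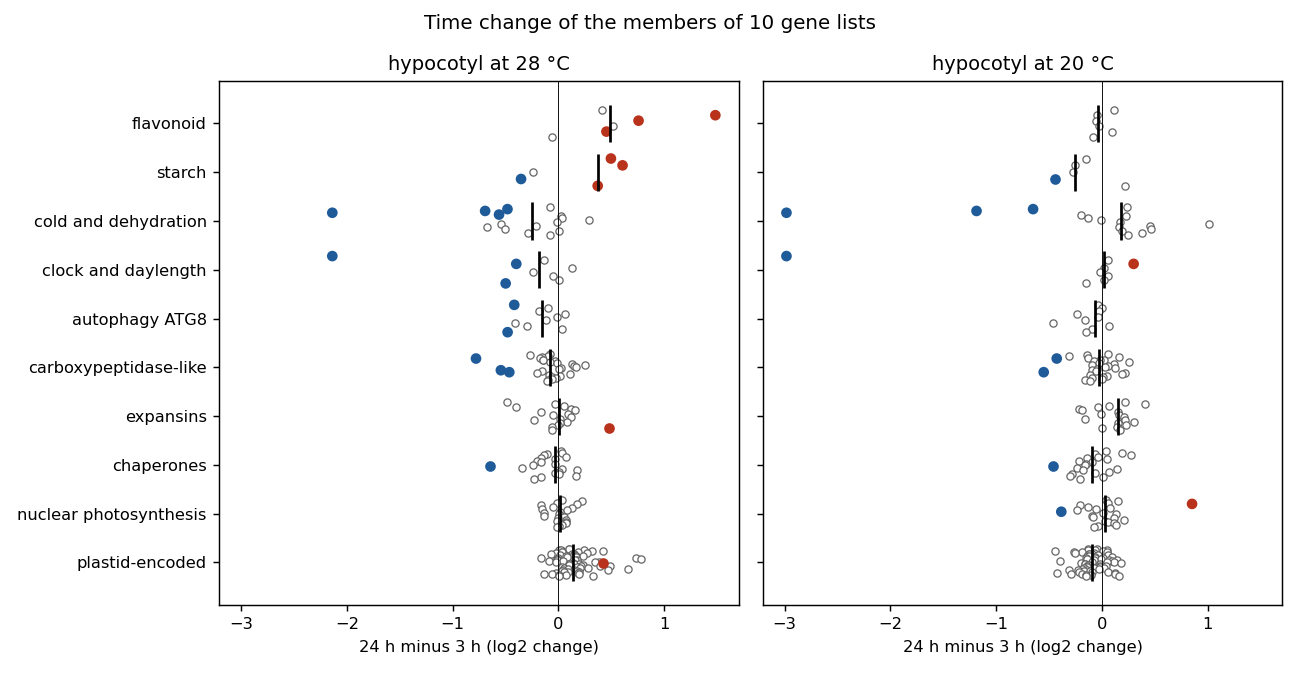
Log2 change from 3 h to 24 h of each measured gene with a symbol (points) in 10 gene lists, in the hypocotyl at 28 °C (left) and at 20 °C (right); filled points passed the limma test (red higher, blue lower), open points did not, and the black bar is the list median. The flavonoid median is 0.49 at 28 °C and −0.04 at 20 °C, the clock row includes XERICO and COR27, the latter also in the cold row, and most points of the expansin, chaperone and photosynthesis lists lie near 0 in both panels.

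At 20 °C, 259 genes (1.94%) differed between the same harvests, 144 higher (1.08%) and 115 lower (0.861%). That count was 137 to 169 without replicate 1 or 2 of either harvest. Of the 394 genes called at 28 °C, 92 (23.4%) were called in the same direction at 20 °C, which is 35.5% of the 259, and 5 in the opposite direction. The genes called at 28 °C had a median change in size of 0.19 at 20 °C against 0.465 at 28 °C, where they had been chosen. Across all genes, the changes at the 2 temperatures correlated at r = 0.11, a description in which genes are not independent and the temperatures share no array. The difference between the changes passed for 88 genes (0.659%), 47 more positive at 28 °C (0.352%) and 41 more negative (0.307%). Of the 394 genes, 45 were among these, and 260 were called at 28 °C and not at 20 °C without a difference that passed. Such genes are not shown to differ between the temperatures. The count of 88 depended on single arrays: it was 17 without replicate 1 of 20 °C at 3 h, 22 without replicate 1 of 28 °C at 3 h or replicate 2 of 20 °C at 24 h, and 29 without replicate 2 of 28 °C at 24 h. It was 42 without replicate 1 of 28 °C at 24 h, 52 without replicate 1 of 20 °C at 24 h and 54 without replicate 2 of 20 °C at 3 h. It was 162 without replicate 3 of 28 °C at 24 h, and 49 in a fit of the hypocotyl arrays alone.

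**Figure D4:**
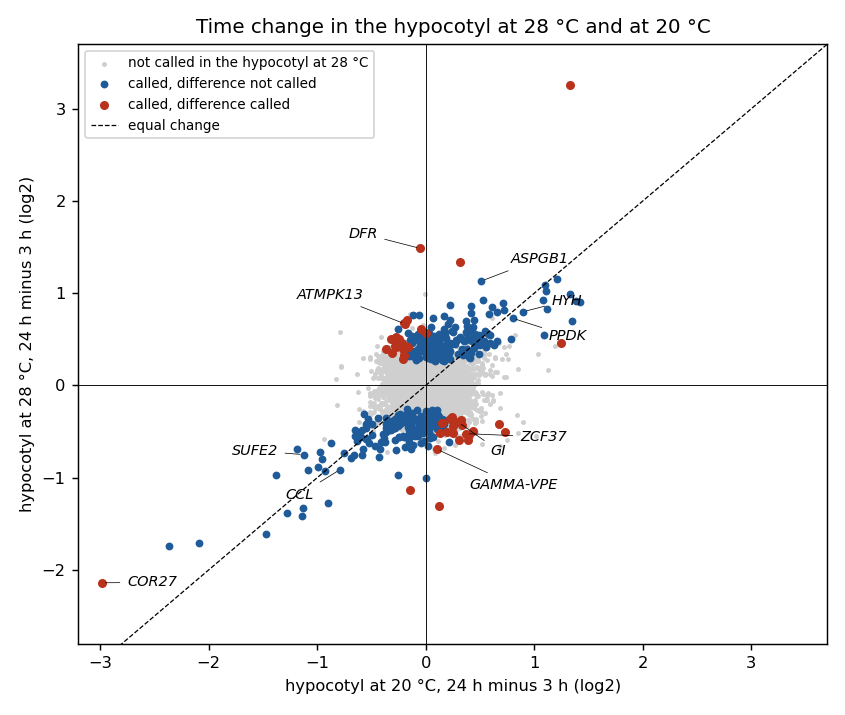
Log2 change from 3 h to 24 h at 28 °C (vertical) against that at 20 °C (horizontal) for 13356 genes in the hypocotyl; blue and red genes were called at 28 °C, red ones also differed between the temperatures, grey ones were not called, and the dashed line marks equal change. COR27, HYH, PPDK and CCL lie near the line or on its side of equal sign, while DFR and ATMPK13 lie near 0 on the horizontal axis and GI lies at opposite signs.

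Cotyledons at 28 °C had many more genes called between the same harvests, 2703 (20.2%), of which 1486 were higher (11.1%) and 1217 lower (9.11%). Centred on reference genes, the higher share was 81.4% in place of 55.0%. That centring used few genes, 1 with a symbol and 3 known by a locus code alone. Of the 394 hypocotyl genes, 290 (73.6%) were called in the same direction in the cotyledon, 10.7% of the 2703, and 2 in the opposite direction. The changes of the 2 organs correlated at r = 0.54 across all genes, again as a description. The difference between the organs passed for 781 genes (5.85%), 355 more positive in the hypocotyl (2.66%) and 426 more negative (3.19%). Centred on reference genes the more positive share was 21.1% in place of 45.5%, and the median difference of all genes moved to −0.11. Of the 394 hypocotyl genes 125 were among the 781, and in 103 of these the cotyledon change was the larger.

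COR27 fell by 3.85 in the cotyledon against 2.14 in the hypocotyl, a difference of 1.71 ± 0.16 (limma adjusted p = 4.09e-09). Its cotyledon values at 24 h (3.38, 3.31 and 3.14) lay about the 10th percentile given above, so this fall and the difference may be understated. PPDK rose by 2.84 there against 0.73 (difference −2.11 ± 0.16, adjusted p = 5.78e-11). PWD fell by 1.68 against 0.35 (difference 1.33 ± 0.10, adjusted p = 4.83e-11), GI by 1.39 against 0.40 and HYH rose by 1.70 against 0.80. These genes moved the same way in both organs and further in the cotyledon. DFR changed by a like amount in both organs. It stood lower in the cotyledon (group means 4.44 at 3 h and 5.88 at 24 h), rose there by 1.44, and the difference between the organs was 0.04 ± 0.29. NET3C, an actin-binding protein gene, rose in the hypocotyl (4.97, 5.22 and 5.05 to 5.75, 5.62 and 5.65; 0.59 ± 0.13) and not in the cotyledon (−0.11), and the difference of 0.69 ± 0.18 passed (adjusted p = 0.0173). Without replicate 1 of 3 h the rise of NET3C was 0.53 (adjusted p = 0.0654) and the difference 0.64 (adjusted p = 0.0511), and without replicate 3 of the cotyledon at 3 h the difference was 0.53 (adjusted p = 0.0806). AT4G19430 and AT1G70270 also rose more in the hypocotyl, by 1.59 ± 0.38 and 0.84 ± 0.24. AT4G19430 already stood higher in the cotyledon at 3 h of 28 °C (6.71, 6.39 and 6.40) than in the hypocotyl (4.14, 4.67 and 4.12). At 24 h it was at 8.51, 7.76 and 8.25 in the cotyledon and at 7.23, 8.22 and 7.25 in the hypocotyl. The difference of AT1G70270 did not pass in 7 of the 12 fits with an array left out (0.59 to 0.84). SUFE2, by contrast, changed by 0.09 in the cotyledon, where it was low (3.58 and 3.67), and differed between the organs by −0.84 ± 0.25 (adjusted p = 0.0434), a call that ended in 9 of the 12 fits with an array left out (−0.89 to −0.66).

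**Figure D5:**
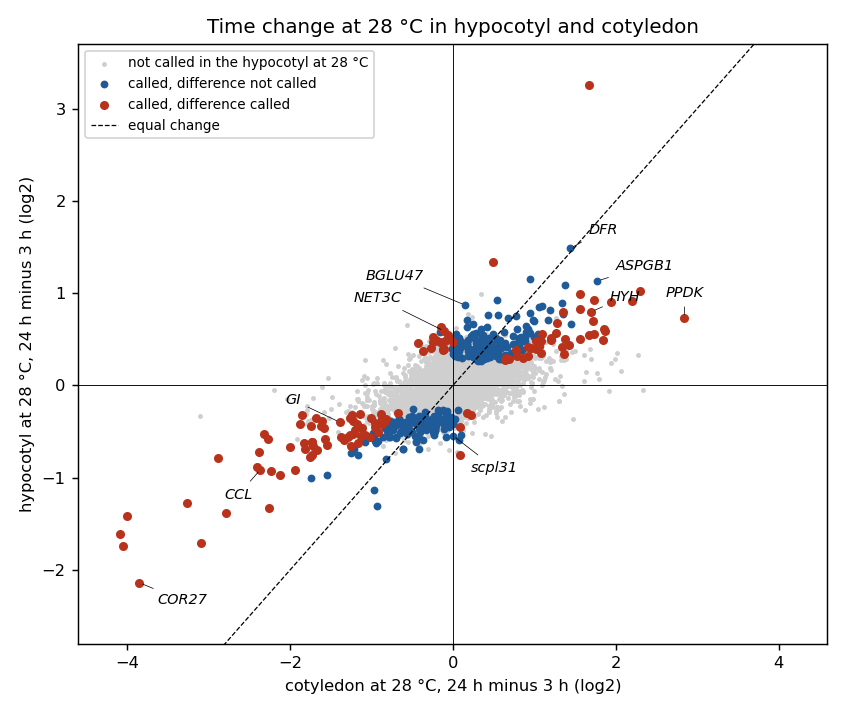
Log2 change from 3 h to 24 h at 28 °C in the hypocotyl (vertical) against the cotyledon (horizontal) for 13356 genes; blue and red genes were called in the hypocotyl, red ones also differed between the organs, grey ones were not called, and the dashed line marks equal change. Most red genes lie on the cotyledon side of the line, as PPDK and COR27 do, DFR lies on the line, and NET3C lies near 0 on the horizontal axis.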

How the data were processed

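Total RNA of dissected organs was hybridised as biotinylated cRNA to Affymetrix arrays. The deposited values are log2 RMA values per probe set; the submitters' processing notes name RMA and limma without versions, and the sources used here do not say on which arrays RMA was run jointly. Of 22746 probe sets, 13513 name 1 gene, 503 several and 8730 are not listed in the probe annotation. They give 13356 genes, 13286 of them matched to RefSeq (TAIR10.1) and 1557 with a symbol. The probe set with the highest mean stood for each of 146 genes with several, and 283 genes rest on a less specific probe set (_s_at or _x_at).

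All 35 arrays (12 groups of 3, but 2 for root at 28 °C after 3 h) entered 1 limma 3.58.1 fit in R 4.3.3 with a mean per group and 23 residual degrees of freedom. Two-sided p-values were adjusted by Benjamini-Hochberg separately for every comparison, with 0.05 as the threshold for calling a gene. The 5 comparisons were 24 h minus 3 h in hypocotyl at 28 °C, hypocotyl at 20 °C and cotyledon at 28 °C, and the differences of the first from the other two. Errors are standard errors of the fit, with a median of 0.105 for a change and 0.149 for a difference; the number of arrays limits this precision. Nothing says that the pooled replicates came from separate cultures, so p-values measure the spread between these samples. The procedure was tested on simulated data.

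The members and lists were chosen with earlier results of these data known. Named genes are the 20 largest rises and 20 largest falls with a symbol and groups that do not overlap, the 5 and 5 largest by locus code, up to 4 called members of each list, the 10 most positive and 10 most negative of each difference, and GI, COR27, Hop3, EXPA8 and LTI30. List members that did not pass, and the marker genes, were named besides. Gene families were rebuilt from symbols, since the annotation holds no product names. Genome and promoter sequences were not used here. Alternatives covered the arrays in the fit, variance moderation, replicate number, scaling, dim genes, probe set choice and leaving out each array.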

Additional observations from a re-analysis of the deposited data

Results flagged for a closer look

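The genes listed here are the named genes for which the test of the difference between 2 time changes passed, between temperatures or between organs. They are 20 of the 88 and 48 of the 781 genes that passed, and part of them were named for the size of that difference. The counts of calls kept therefore describe these genes only. Values are differences of log2 changes from 3 h to 24 h, with limma adjusted p under 0.05.

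Between the hypocotyl at 28 °C and at 20 °C, the difference was positive in AT4G19430 (1.93), DFR (1.53), AT1G70270 (1.02), ATMPK13 (0.86), COR27 (0.85), YAB5 (0.80), IQD24 (0.75), BCAT4 (0.66), TCP15 (0.64), APS3 (0.62), TAAC (0.57) and IMP4 (0.52). It was negative in ZCF37 (−0.89), MT1C (−0.82), GAMMA-VPE (−0.79), SKP2A (−0.72), GI (−0.70), PUP15 (−0.55), CP5 (−0.55) and APA1 (−0.48). The F-box gene SKP2A (−0.16 at 28 °C, 0.56 at 20 °C) and CP5 (−0.17 and 0.38) passed at 20 °C and not at 28 °C. APS3, an ATP sulfurylase gene of sulphate assimilation, changed by 0.30 and −0.32. Of these 20 genes, ATMPK13, BCAT4, COR27, DFR and GI kept the call in every alternative, and 15 lost it in at least 1.

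Between the hypocotyl and the cotyledon at 28 °C, the difference was positive in AT5G62360 (2.58), AT4G16146 (2.48), AT1G07050 (2.31), COR27 (1.71), BGLU44 (1.59), AT4G19430 (1.59), CHL (1.53), CCL (1.45), AT4G32340 (1.41), PORB (1.4), AT4G33980 (1.39), PWD (1.33), COR15B (1.13), Fes1B (1.06), TUB5 (1.04), LCR69 (1.03), GI (0.99), THIC (0.97), SCPL49 (0.97), AT1G70270 (0.84), PDC2 (0.73), COR15A (0.72), NET3C (0.69), scpl35 (0.66), MAP1C (0.58), TUB9 (0.57) and GID1A (0.51). It was negative in PPDK (−2.11), BHLH101 (−1.94), MT1C (−1.84), JMT (−1.70), CSLA01 (−1.46), PUB19 (−1.30), BGLU40 (−1.28), AT2G41250 (−1.28), SWEET2 (−1.21), CIL (−1.13), SP1L4 (−1.09), HYH (−0.90), GR1 (−0.87), SUFE2 (−0.84), Hop3 (−0.81), SKP2A (−0.77), BCAT4 (−0.73), TBL26 (−0.72), bHLH34 (−0.55), HCT (−0.47) and IMP4 (−0.44). Among these, PORB, a protochlorophyllide oxidoreductase of chlorophyll synthesis, changed by −0.38 in the hypocotyl and −1.78 in the cotyledon. JMT, which methylates jasmonic acid, changed by 0.29 and 1.99, and the metallothionein gene MT1C by −0.36 and 1.48. Of these 48 genes, 35 kept the call in every alternative and 13 lost it in at least 1. Both families of differences share the 28 °C hypocotyl arrays.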

How the results depend on the processing

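No called change of a named gene changed sign. Centring arrays on their median turned the majority of calls from higher to lower: 146 higher and 211 lower in the hypocotyl at 28 °C, 37 and 43 for its difference to 20 °C, and 1313 and 1508 in the cotyledon. Quantile normalisation gave near-even splits at 28 °C (183 and 185) and for its difference to 20 °C (32 and 34), as did reference genes at 20 °C (105 and 106). Several counts moved by more than 1.5 times. With only the arrays of the groups compared in the fit, the counts were 228 in place of 394 (192 of them shared) for the hypocotyl at 28 °C, 49 in place of 88 for its difference to 20 °C, 1680 in place of 2703 for the cotyledon and 453 in place of 781 for the difference to the cotyledon. With the replicate block added to those fits they were 205, 57, 1376 and 377. With only the hypocotyl arrays the difference to 20 °C gave 49. With all probe sets tested, the counts were 912, 682 (in place of 259 at 20 °C), 178, 5301 and 1641, over more features. With each array left out counts ran from 163 to 392 at 28 °C, 137 to 279 at 20 °C, 17 to 162 and 616 to 803 for the differences to 20 °C and to the cotyledon, and 2232 to 2443 in the cotyledon; the cotyledon and hypocotyl-cotyledon ranges stayed within 1.5 times. The cause was not tested.

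Same-numbered 28 °C hypocotyl arrays of the 2 harvests deviated from their group means with r = −0.00918, −0.00145 and 0.0476. The same-numbered hypocotyl arrays of 20 °C gave 0.0753, 0.144 and −0.0623. With 3 arrays a group, such values cannot show whether same-numbered samples shared a harvest session. The replicate block in the fit of all arrays gave 361, 259, 73, 2668 and 757.

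Of 72 named genes called at 28 °C, 29 kept the call in every setting, and 40 lost it with at least 1 array left out. Single-gene calls at 20 °C and in the cotyledon were not recomputed. Dim genes have little range on these arrays, which limits folds near the background.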

Other observations

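Some gene groups were not described above. Their counts are to be read against the 1.57% of all genes that rose and the 1.38% that fell, so 0 calls in a short list say little. Genes with a symbol passed more often than all genes (42 rose and 33 fell of 1557). The medians stand beside −0.02 at 28 °C and 0.01 at 20 °C for all genes. Of 12 measured genes of RNA polymerase subunits, NRPC1, the largest subunit of RNA polymerase III, was higher at 24 h than at 3 h of 28 °C (5.54, 5.10 and 5.26 to 5.77, 6.03 and 5.77; 0.56 ± 0.13, limma adjusted p = 0.0137). Its call ended without replicate 2 of 24 h or replicate 2 or 3 of 3 h (0.45 to 0.54). The list median was 0.16 at 28 °C and −0.18 at 20 °C. Of 20 cell cycle genes, the Aurora kinase genes included, 0 passed, with a median of 0.17 at 28 °C and −0.02 at 20 °C, and the Aurora kinase genes AUR1, AUR2 and AUR3 changed by 0.27, 0.37 and 0.32. Of 16 mitochondrion-encoded genes 0 passed (median 0.18), and of 14 glutathione S-transferase genes 0 passed (median −0.11). The gibberellin receptor gene GID1A fell by 0.36 ± 0.10 (adjusted p = 0.043), while GID1B and GID1C changed by 0.03 and 0.02; the call of GID1A ended without any of the 6 arrays but replicate 1 of 24 h (−0.40 to −0.30).

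The genes called at 28 °C with a difference to 20 °C that passed numbered 45, of which 23 were higher and 22 lower at 24 h. In 39 of the 45 the change at 20 °C had the opposite sign by estimate, and in 41 it was the smaller of the 2. The 45 genes were chosen for a call at 28 °C and for a difference to 20 °C, a choice that by itself favours a smaller or opposite change at 20 °C, so these counts only describe them. The same 28 °C arrays enter both tests.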
